A study of Homo sapiens with 12 samples.

Results

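The genes followed here were 47 genes of DNA repair, chosen by name for their roles in homologous recombination, the Fanconi pathway, end joining, mismatch repair and the signalling of DNA breaks, out of 59276 gene symbols with a value in each sample. JJN3 is an established line of human multiple myeloma, and MS023 is an inhibitor of type I protein arginine methyltransferases, the class to which PRMT1 belongs. Wildtype JJN3 cells received the solvent DMSO or MS023 at 10 µM for 3 days. In the other arm, JJN3 cells that expressed Cas9 from a lentivirus, and that had been sorted for it and selected with puromycin for a Dox-inducible guide, were induced with Dox for 3 days and carried either a control guide (isgCtrl) or iPRMT1_1, a guide against PRMT1 (PRMT1-KO). Both guide lines thus share Cas9, the vector and Dox, and they differ in the guide, while DMSO and MS023 cells share none of these agents. Each group had 3 replicates, and RNA of all 12 samples was sequenced.

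Homologous recombination (HR) repairs a DNA break by copying an intact sister chromatid, so it works in S and G2 phase. The broken end is first cut back to a single strand, and BRCA1, PALB2 and BRCA2 then place the recombinase on it. The Fanconi pathway deals with crosslinks between the DNA strands, where a core complex of FANC proteins attaches ubiquitin to the FANCD2-FANCI pair at a stalled fork. Classical end joining seals a break without a template in every phase of the cell cycle, and mismatch repair removes wrongly paired bases left behind by the polymerases. Plasma cells and myeloma cells make large amounts of secreted protein, and myeloma lines such as JJN3 divide steadily in culture.

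The values are log2(TPM+1), where TPM is a level scaled to transcript length and to the same total in each sample, so that the read depth behind a value is not known. Between 20988 and 22241 symbols were above 0 in a sample, and replicates of the same group had a Pearson's r of 0.992 to 0.995 across genes above 0 on average. Nothing in the labels says that replicates came from separate cultures, so p-values measure the spread between these samples, which may be technical. All values are of bulk RNA, in which fewer cells of a kind and less RNA per cell cannot be told apart. PRMT1 mRNA was 9.76, 9.76 and 9.73 in isgCtrl and 8.24, 8.28 and 8.24 in PRMT1-KO, a log2 fold change of -1.50 (standard error, SE, 0.04). It was 0.04 higher with MS023 than in DMSO on the same scale (SE 0.06), which did not pass the test. TPM count edited and unedited transcripts alike, so the mRNA level is no measure of how many cells were edited. Of 10 plasma cell markers, 10 had a mean above 1 in DMSO and with MS023, 9 in isgCtrl and 7 in PRMT1-KO, and their summed level was 5545 to 5795 TPM in DMSO, 11772 to 12132 with MS023, 2980 to 3168 in PRMT1-KO and 2766 to 2836 in isgCtrl. Of 10 markers of other blood cells, CD68, HBA1 and HBB alone had a mean above 1 in any group, and the list summed to 6.33 to 8.44 TPM in DMSO, 12.2 to 15.4 with MS023, 9.36 to 13.7 in PRMT1-KO and 13.4 to 21.3 in isgCtrl. CD3D was listed at 0 with MS023 and in both guide lines, and PAX5 at 0 in both guide lines. SLAMF7 was the plasma cell marker under 1 in isgCtrl, and SLAMF7, CD38 and MZB1 were under 1 in PRMT1-KO. The part of these differences in the results was not tested.

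All 47 repair genes were expressed in DMSO, with mean levels from 2.61 TPM for FANCB to 346 TPM for XRCC6, one of the Ku proteins, and a median of 16.8 TPM. All 47 passed the filter for testing, for which the mean log2(TPM+1) of at least 1 of the groups compared had to exceed 1. A gene was called where the p of limma, adjusted by the Benjamini-Hochberg method over all genes tested (BH-adjusted p), was under 0.05 and the absolute log2 fold change was above 0.48, and "fell" and "rose" are written for called genes. A fold change is the difference of log2(TPM+1), a scale that understates the change of genes at low levels.

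After 3 days of MS023, 31 of the 47 repair genes fell and none rose, which is 66.0% of them, while 19.3% of the 12903 genes tested fell and 11.6% rose. The median log2 fold change of the 47 genes was -0.73, against -0.11 for all genes tested. The sign was negative for 46 of them (97.9%), against 59.1% of all genes tested, and LIG4 was the exception. Over all genes tested 2486 were called lower and 1500 higher in the deposited values, 1959 and 1906 after median-ratio scaling, and 1927 and 1922 after quantile normalization, while 30 and 28 of the repair genes were called lower under these scalings and LIG4 was called higher. The genes that fell were left with 19.3% to 66.4% of their TPM in DMSO, with a median of 49.9%, and 16 of the 31 were left with under 50%. The highest BH-adjusted p among them was 0.0147 (limma). In 42 of the 47 genes, or 89.4%, every MS023 sample lay below every DMSO sample, which was so for 36.3% of all genes tested. Values overlapped in XRCC3, WRN, TOP3A and TP53BP1. An exact permutation test (two-sided) of 1 gene cannot go below p = 0.1 with these group sizes.

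**Figure D1:**
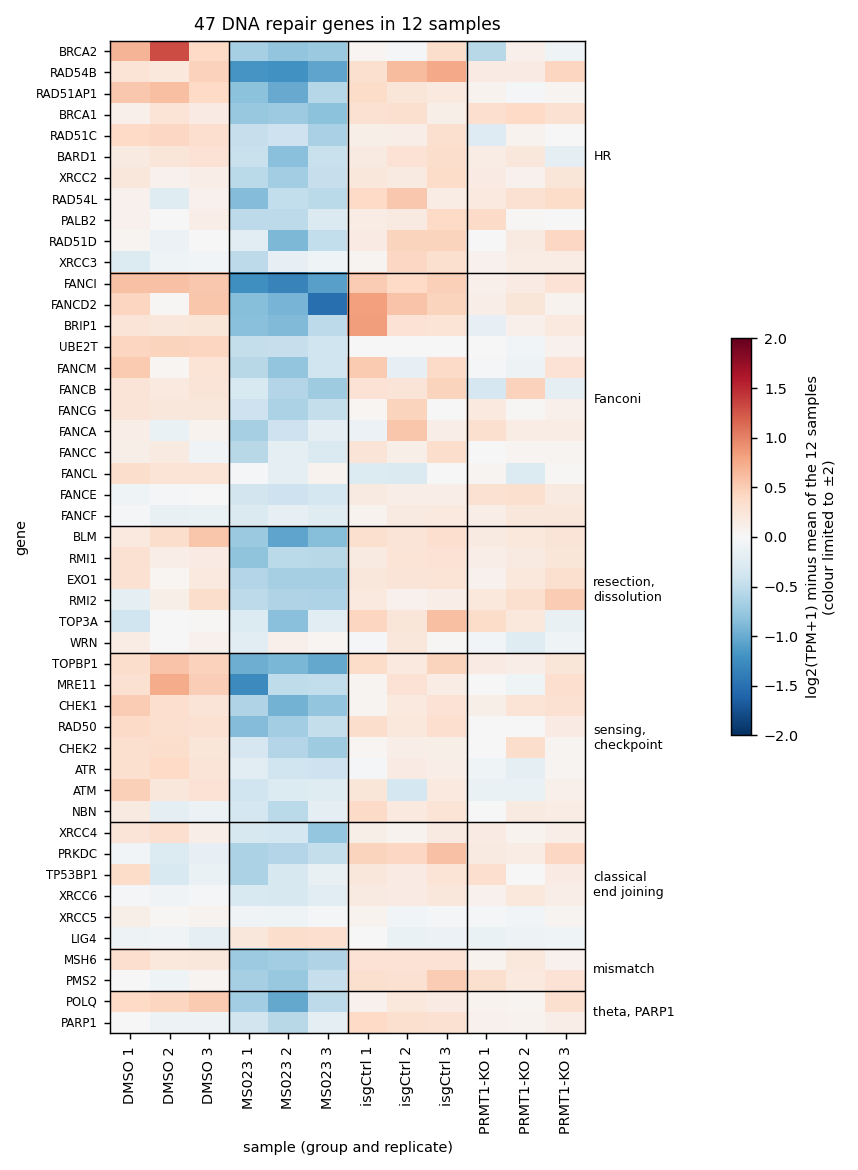
Heat map of the 47 repair genes (rows, grouped by role) in the 12 samples (columns). Colour is log2(TPM+1) minus the gene's mean over the 12 samples, limited to 2 either way. The 3 MS023 columns are blue in nearly every row of recombination, Fanconi and break sensing genes, and LIG4 is the row in which all 3 are red.

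HR and Fanconi genes were compared with end joining and mismatch repair genes. Of the 23 HR and Fanconi genes, 16 fell with MS023 (69.6%), with a median log2 fold change of -0.77. Of the 8 end joining and mismatch repair genes, 3 fell (37.5%), with a median of -0.37. The mean log2(TPM+1) of the 23 HR and Fanconi genes was 4.03, 3.99 and 4.01 in the DMSO samples and 3.20, 3.15 and 3.26 with MS023. That of the 8 end joining and mismatch repair genes was 4.90, 4.75 and 4.78 in DMSO and 4.39, 4.44 and 4.48 with MS023. Both means were lower in all 3 MS023 samples than in any DMSO sample. The smaller group was not uniform, since 1 of 6 classical end joining genes fell against 2 of 2 mismatch repair genes. Lists of genes are described here by counts and medians, and the difference between the lists was not tested.

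The promoters of the HR or Fanconi gene and of the end joining or mismatch repair gene with the largest fall, and of the gene of each kind with the smallest change, are shown to set those genes side by side. They come from RefSeq on GRCh38.p14, among genes that have an entry there, and run from 250 bases before the transcription start to 50 bases after it. Capitals mark a CCAAT box, an E2F motif or a CHR on either strand. BRCA2 (chr13:32315258-32315557, plus strand) and MSH6 (chr2:47782895-47783194, plus strand) fell, whereas XRCC3 (chr14:103715402-103715701, minus strand) and XRCC6 (chr22:41621045-41621344, plus strand) were not called.
BRCA2: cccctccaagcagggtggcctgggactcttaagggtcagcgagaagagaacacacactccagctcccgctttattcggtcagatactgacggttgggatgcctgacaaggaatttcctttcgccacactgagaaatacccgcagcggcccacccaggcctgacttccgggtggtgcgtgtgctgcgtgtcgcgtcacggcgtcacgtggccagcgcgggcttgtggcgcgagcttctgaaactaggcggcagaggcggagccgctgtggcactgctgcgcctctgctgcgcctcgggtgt
XRCC3: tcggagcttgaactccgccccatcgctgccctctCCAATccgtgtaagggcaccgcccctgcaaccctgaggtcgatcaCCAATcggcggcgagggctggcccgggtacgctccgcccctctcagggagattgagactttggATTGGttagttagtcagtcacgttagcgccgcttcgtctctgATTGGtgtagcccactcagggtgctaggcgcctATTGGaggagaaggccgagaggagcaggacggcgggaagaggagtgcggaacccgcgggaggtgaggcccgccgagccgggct
MSH6: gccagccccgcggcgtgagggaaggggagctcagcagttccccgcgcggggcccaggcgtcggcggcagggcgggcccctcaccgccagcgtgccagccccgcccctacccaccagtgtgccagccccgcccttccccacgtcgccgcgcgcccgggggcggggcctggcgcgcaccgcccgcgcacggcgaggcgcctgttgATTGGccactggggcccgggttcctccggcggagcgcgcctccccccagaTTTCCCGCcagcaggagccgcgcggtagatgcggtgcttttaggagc
XRCC6: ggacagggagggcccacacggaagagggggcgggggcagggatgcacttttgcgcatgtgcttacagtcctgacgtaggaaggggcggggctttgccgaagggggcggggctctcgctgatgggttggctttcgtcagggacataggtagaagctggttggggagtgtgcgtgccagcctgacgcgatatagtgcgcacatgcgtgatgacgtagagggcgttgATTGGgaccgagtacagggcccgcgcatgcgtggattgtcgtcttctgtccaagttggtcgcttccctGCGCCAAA

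The BRCA2 window held none of the motifs searched, and the XRCC3 window held 5 CCAAT boxes. The MSH6 window held an E2F motif at position 4 from the start and a CCAAT box, on the minus strand, at -47. That of XRCC6 held an E2F motif on the minus strand at 43 and a CCAAT box on the minus strand at -26. The E2F motif was searched as TTTGGCGC, TTTGCCGC, TTTCGCGC or TTTCCCGC, the CHR as TTTGAA and the CCAAT box as CCAAT, on both strands, and none of these letters contains another. E2F proteins switch on genes at entry into S phase, the CHR is bound by complexes that regulate genes of the late cell cycle, and the CCAAT box by NF-Y.

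Of the 47 genes, 40 had a promoter window. An E2F motif was in 22.5% of them (9 of 40), against 3.33% of all 27305 promoters, 5.80% of those of genes tested with MS023 and 8.84% of those of genes that fell. It was in 21.4% of the windows of the repair genes that fell and in 25.0% of those that were not called. HR and Fanconi genes had it in 19.0% of their windows (XRCC2, FANCA, FANCC and FANCD2) and end joining and mismatch repair genes in 50.0% (XRCC6, MSH6 and PMS2). EXO1 and TOPBP1 were the other genes with it. A CCAAT box was in 50.0% of the 40 windows, against 35.7% of all promoters and 37.7% of those of genes tested with MS023. The CHR was in 12.5%, against 15.4% of all and 9.67% of those of genes tested. These are matches of letters in a window and not sites of binding.

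Among the genes that load the recombinase, 9 of 11 fell with MS023, with a median log2 fold change of -0.82. BRCA2, which carries the recombinase to the single strand, had values of 2.34, 2.98 and 2.07 in DMSO and 1.01, 0.87 and 0.92 with MS023. All MS023 samples lay below all DMSO samples, and the second DMSO replicate stood above the other two. The log2 fold change was -1.53, SE 0.23 (limma, BH-adjusted p = 0.00279), and it was -1.27 without the second DMSO replicate. In TPM this was the deepest fall of the 31, to 19.3% of DMSO. The mean of BRCA2 with MS023 lay under the filter of 1, which the gene passed through its DMSO samples. This share therefore rests on a low level. RAD54B, a motor protein that helps the recombinase filament invade the sister, went from 3.25, 3.19 and 3.43 to 1.79, 1.77 and 1.92, with a log2 fold change of -1.46, SE 0.09 (limma, BH-adjusted p = 1.39e-04). RAD51AP1, a helper of strand invasion, fell by 1.32 on the log2 scale.

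BRCA1 fell by 0.95 (SE 0.07), and its partner BARD1 by 0.82. PALB2, the bridge between BRCA1 and BRCA2, fell by 0.52, the smallest fall of the list, and it was not called under either scaling or without the second MS023 replicate. Of the recombinase paralogs, RAD51C fell by 0.89 and XRCC2 by 0.71. RAD51D, in the same family, had a log2 fold change of -0.51, but its BH-adjusted p of 0.0516 (limma) missed the threshold. RAD54L, the sister protein of RAD54B, fell by 0.60, and was not called after quantile normalization or without the first DMSO replicate. XRCC3, also a recombinase paralog, had values of 4.63, 4.83 and 4.86 in DMSO and 4.38, 4.74 and 4.83 with MS023. These values overlapped, and its log2 fold change of -0.12 had a 95% interval from -0.46 to 0.21 and turned positive (0.016) after quantile normalization.

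In the Fanconi list, 7 of 12 genes fell, with a median log2 fold change of -0.76. FANCI and FANCD2, the pair that receives ubiquitin, had the lowest log2 fold changes of the list on this scale. FANCI (chromosome 15, 89243945 to 89317261, plus strand of GRCh38) was 6.83, 6.83 and 6.79 in DMSO and 5.03, 4.91 and 5.17 with MS023. This gap is far wider than the spread within either group, and the log2 fold change of -1.78 (SE 0.08) was the lowest of the 47 genes (limma, BH-adjusted p = 7.36e-05). In TPM it went from 112 ± 1.77 to 31.9 ± 2.93 (SD, n = 3). FANCD2 (chromosome 3, 10026370 to 10101932, plus strand) was 4.98, 4.58 and 5.12 in DMSO and 3.70, 3.63 and 3.05 with MS023, and it fell by 1.43 (SE 0.22). Its replicates spread more than those of FANCI, and the groups still did not overlap.

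UBE2T, the enzyme that hands ubiquitin to the pair, fell by 0.88, and FANCM, which brings the core complex to the fork, by 0.86. BRIP1, a helicase that binds BRCA1, fell by 0.99. Within the core complex the result was divided. FANCB fell by 0.77 and FANCG by 0.75. FANCB, FANCM and BRIP1 were not tested where every DMSO and MS023 sample had to exceed 1, so their falls rest on low levels. FANCA (-0.44), FANCC (-0.42), FANCL (-0.35), which is the ubiquitin ligase, and FANCE (-0.34) had adjusted p under 0.05 in limma but log2 fold changes under the threshold of size. FANCF, the adaptor of the complex, was 3.79, 3.68 and 3.71 in DMSO and 3.54, 3.67 and 3.59 with MS023. Its samples did not overlap by a narrow margin, and its log2 fold change of -0.13 did not pass the test (limma, BH-adjusted p = 0.174) and was 0.015 after quantile normalization.

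Among the genes of end resection and of the dissolution of joined molecules, 4 of 6 fell, with a median of -0.74. BLM, the helicase of the dissolving complex, was 3.43, 3.59 and 3.79 in DMSO and 2.50, 2.18 and 2.39 with MS023. It fell by 1.25 (SE 0.13). RMI1, a scaffold of that complex, was 3.28, 3.11 and 3.14 in DMSO and 2.16, 2.43 and 2.42 with MS023, and it fell by 0.84. Groups did not overlap for either gene. RMI2 fell by 0.67, and EXO1, the exonuclease that lengthens the single strand, by 0.81. TOP3A, the topoisomerase of the same complex, had a log2 fold change of -0.32 with a 95% interval from -0.81 to 0.18. WRN, a helicase related to BLM, was 1.93, 1.77 and 1.87 in DMSO and 1.57, 1.88 and 1.82 with MS023, and these values overlapped (log2 fold change -0.10).

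**Figure D2:**
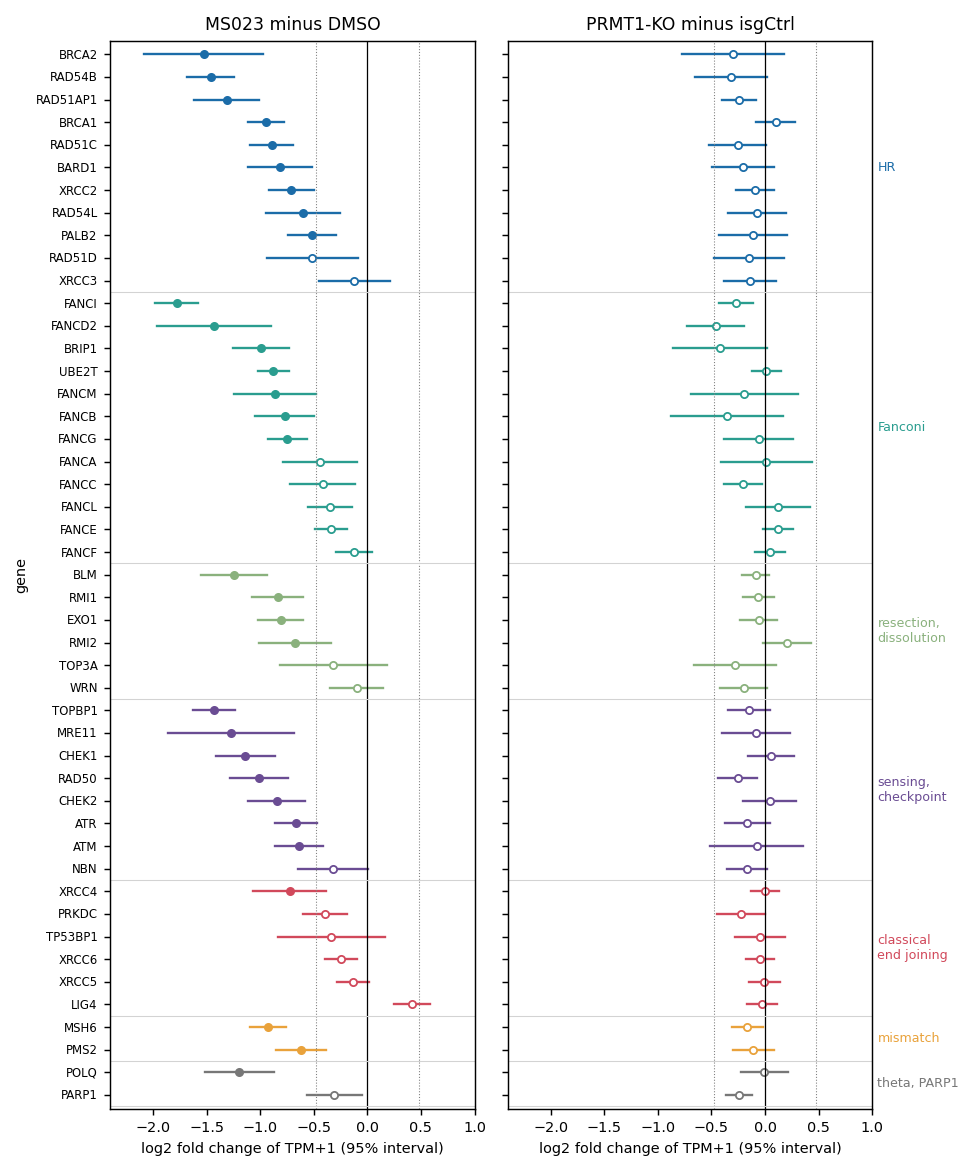
Log2 fold change of TPM+1 with its 95% interval (x axis) for each of the 47 genes (y axis), for MS023 against DMSO (left) and PRMT1-KO against isgCtrl (right). Filled points are called genes, open points are not, and dotted lines mark 0.48 either way. With MS023, 31 genes are filled, from PALB2 at -0.52 to FANCI at -1.78, and in PRMT1-KO all are open.

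Break sensing and checkpoint genes fell in 7 of 8 cases, with the lowest median of any of the lists of more than 2 genes, -0.93. TOPBP1 (chromosome 3, 133598175 to 133662380, minus strand of GRCh38), which activates the kinase ATR at stalled forks, was 5.53, 5.76 and 5.65 in DMSO and 4.21, 4.27 and 4.16 with MS023. It fell by 1.43 (SE 0.08, limma, BH-adjusted p = 1.13e-04). MRE11, the nuclease of the complex that first binds a break, was 4.64, 5.09 and 4.83 in DMSO and 3.07, 3.83 and 3.85 with MS023. The first MS023 replicate was lower than the other two, and without it the log2 fold change was -1.01 in place of -1.27. RAD50, its partner, fell by 1.01, whereas NBN, the remaining subunit, was 4.61, 4.25 and 4.30 in DMSO and 4.07, 3.88 and 4.24 with MS023. The log2 fold change of NBN was -0.32, and it did not pass the test (limma, BH-adjusted p = 0.0942). CHEK1, the kinase that halts the cell cycle below ATR, fell by 1.14 and CHEK2, the kinase below ATM, by 0.85. ATR fell by 0.67 and ATM by 0.64.

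Of the classical end joining genes, XRCC4 alone fell. XRCC4 (chromosome 5, 83077498 to 83353787, plus strand), the scaffold of the ligation step, was 3.54, 3.63 and 3.42 in DMSO and 2.96, 2.93 and 2.51 with MS023, a log2 fold change of -0.73, SE 0.14 (limma, BH-adjusted p = 0.00694). LIG4 (chromosome 13, 108207439 to 108218368, minus strand of GRCh38), the ligase that works in a complex with XRCC4, was 2.92, 2.96 and 2.84 in DMSO and 3.24, 3.37 and 3.35 with MS023. All of its MS023 samples lay above all DMSO samples, at 139% of the TPM in DMSO. Its log2 fold change of 0.42 had a BH-adjusted p of 0.00433 (limma) and lay under the threshold of size. It was 0.51 after median-ratio scaling and 0.56 after quantile normalization, and passed both thresholds there.

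The Ku proteins, which hold the broken ends, were near their levels in DMSO. XRCC5 was 7.41, 7.31 and 7.36 in DMSO and 7.22, 7.20 and 7.26 with MS023, a log2 fold change of -0.14 that did not pass the test. XRCC6 had a log2 fold change of -0.25 and PRKDC, the kinase that Ku recruits, of -0.40. Both had adjusted p under 0.05 in limma and lay under the threshold of size. TP53BP1, which shields ends from resection, had a log2 fold change of -0.34 with a 95% interval from -0.84 to 0.17.

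Both mismatch repair genes fell. MSH6, which recognises the mispaired base, was 4.89, 4.77 and 4.78 in DMSO and 3.83, 3.86 and 3.94 with MS023, and it fell by 0.93 (SE 0.07, limma, BH-adjusted p = 2.46e-04). PMS2, the nuclease that cuts the strand to be repaired, was 3.54, 3.44 and 3.58 in DMSO and 2.86, 2.77 and 3.06 with MS023, and it fell by 0.62, a call that was lost after quantile normalization. Neither gene had overlapping groups. POLQ, the polymerase of theta end joining, was 2.98, 3.00 and 3.10 in DMSO and 1.87, 1.56 and 2.05 with MS023, and it fell by 1.20 (SE 0.13). PARP1, the enzyme that marks breaks with ADP-ribose, was 8.17, 8.04 and 8.06 in DMSO and 7.79, 7.60 and 7.95 with MS023. Its groups did not overlap, but its log2 fold change of -0.31 did not pass the test (limma, BH-adjusted p = 0.0502).

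**Figure D3:**
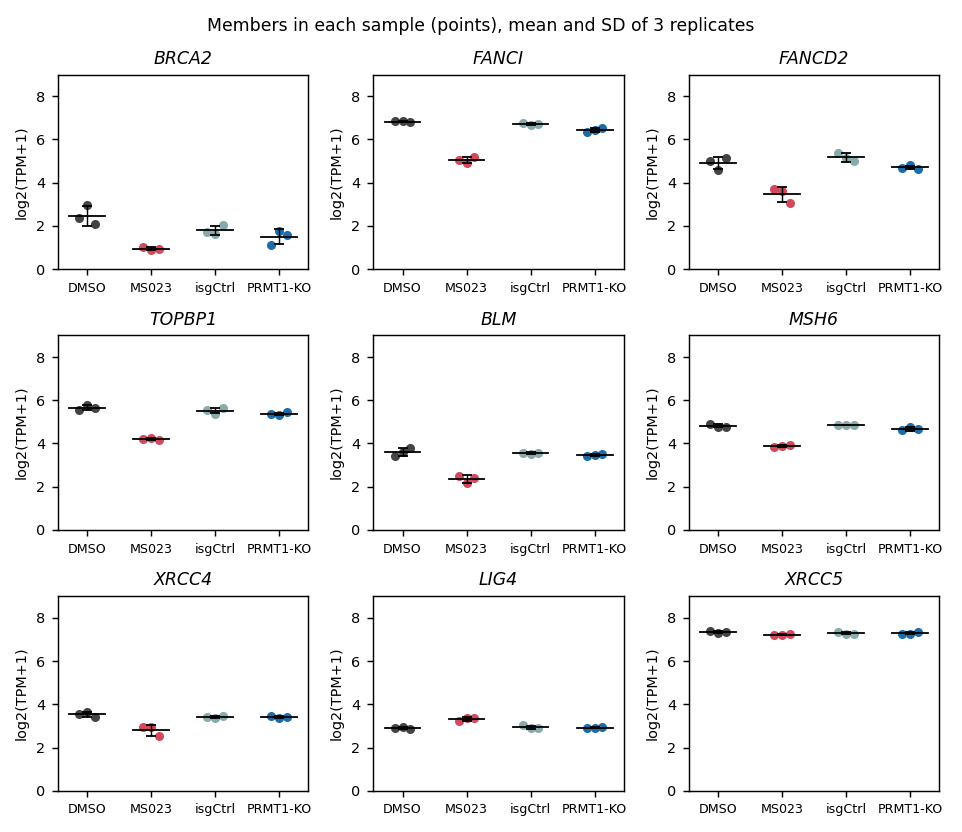
Log2(TPM+1) (y axis) of 9 repair genes in each sample, with the mean and SD of the 3 replicates of each group (x axis). BRCA2, FANCI, FANCD2, TOPBP1, BLM, MSH6 and XRCC4 are lower in the MS023 samples than in the DMSO samples, LIG4 is higher, and XRCC5 lies between 7.20 and 7.41 in both.

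Other genes of these pathways were counted in the same fit. Of 34 tested HR and Fanconi genes outside the 47, 17 fell and 1 rose, with a median log2 fold change of -0.50. The largest changes were in MND1 (-2.14), which pairs chromosomes in recombination and is best known from meiosis, MCM8 (-1.63), a helicase of recombination, and EME1 (-1.18), a subunit of a nuclease that cuts joined molecules. The gene that rose was RECQL5 (0.49), a helicase that takes the recombinase off DNA. Of 14 tested end joining genes outside the 47, 2 fell, with a median of -0.32. They were TDP1 (-1.0), which frees DNA ends from trapped topoisomerase, and SHLD3 (-0.76), a subunit of the complex that shields ends, and the next largest change was that of POLM (-0.48), which was not called. Of 4 tested mismatch repair genes, 3 fell, namely MSH3 (-1.16), the alternative partner of MSH6's dimer, MSH5 (-0.71) and PMS1 (-0.63), and the median was -0.67. Of 25 genes of excision repair, 7 fell, with a median of -0.21 and the largest changes in DDB2 (-1.73), a sensor of ultraviolet damage, LIG1 (-1.55), the ligase of replication, and ERCC8 (-1.25). Among these other genes the share that fell was lower for end joining than for HR and Fanconi or for mismatch repair. The mismatch repair share rests on 4 genes. These lists were also chosen with earlier results of these data known, and their shares were not tested against each other.

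Markers of S phase and proliferation moved with the repair genes. Of 20 such markers 17 fell and 1 rose with MS023, with a median log2 fold change of -0.84, and their mean log2(TPM+1) was 6.71, 6.67 and 6.70 in DMSO and 5.82, 5.77 and 5.87 with MS023. PCNA, the sliding clamp of replication, fell by 0.93, TOP2A by 1.60 and AURKA by 1.75, CDC6 (-0.42) and UHRF1 (-0.47) were not called, and SLBP, the binding protein of histone mRNA, rose by 1.19. In PRMT1-KO none of the 20 markers was called, and their mean was 6.78, 6.75 and 6.81 in isgCtrl and 6.70, 6.75 and 6.73 in PRMT1-KO. Their part in the result was not tested.

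**Figure D4:**
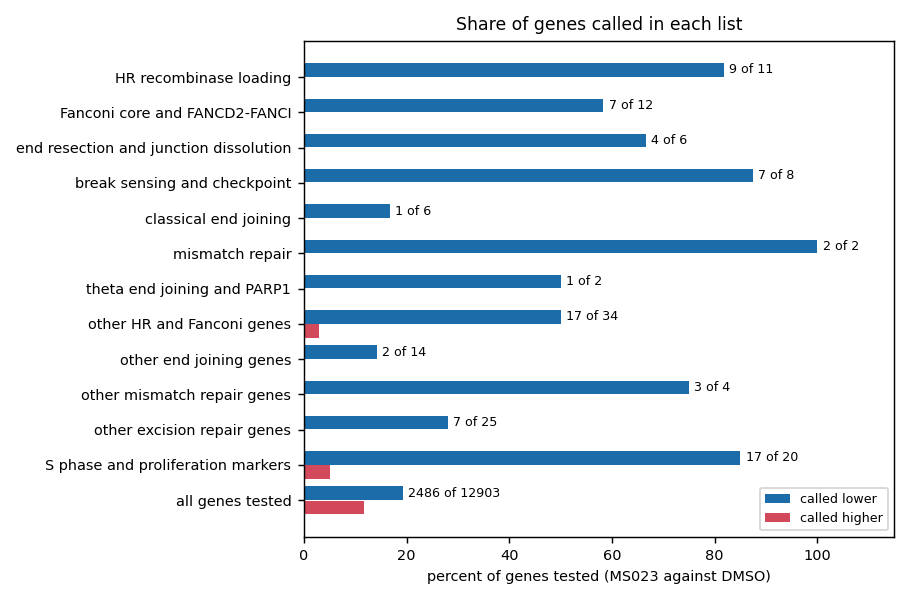
Percent of the tested genes of each list (x axis) that were called lower (blue) or higher (red) with MS023 against DMSO, with the number called lower of the number tested beside each bar. All lists of recombination, Fanconi, sensing, mismatch repair and proliferation genes lie above the 19.3% of all genes. The lists of classical and other end joining genes, at 1 of 6 and 2 of 14, lie below it, and that of theta end joining and PARP1, at 1 of 2, lies above it.

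In PRMT1-KO cells none of the 47 repair genes was called, where 0.781% of the 12285 genes tested were. None reached an adjusted p under 0.05 in limma, and the lowest was the BH-adjusted p = 0.0989 of PARP1. With a trended eBayes in limma the BH-adjusted p was 0.0118 for PARP1, 0.0414 for FANCI and 0.0484 for FANCD2, and all 3 lay under the threshold of size. At an unadjusted p under 0.05 in limma there were 8 of 47 (17%), against 18.6% of all genes tested. These were FANCD2 (-0.46), FANCI (-0.27), RAD50 (-0.26), RAD51AP1 (-0.24), PARP1 (-0.24), PRKDC (-0.23), FANCC (-0.21) and MSH6 (-0.16). The median log2 fold change of the 47 genes was -0.11, against -0.04 for all genes tested. Of the 47, 37 were negative (78.7%), against 60.5% of all genes tested. After median-ratio scaling and after quantile normalization 34 were negative (72.3%), against 50.7% and 50.5% of all genes tested. In 12 genes, or 25.5%, every PRMT1-KO sample lay below every isgCtrl sample, against 17.6% of all genes tested, and in FANCE and RMI2 every sample lay above, against 9.11% of all genes tested. Among the 34 tested HR and Fanconi genes outside the 47, none was called and the median was also -0.11.

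FANCD2 was 5.37, 5.12 and 4.99 in isgCtrl and 4.68, 4.80 and 4.63 in PRMT1-KO, and FANCI was 6.75, 6.65 and 6.72 in isgCtrl and 6.36, 6.42 and 6.54 in PRMT1-KO. Neither pair of groups overlapped, and both genes failed the adjusted test, with BH-adjusted p from limma of 0.120 and 0.126. MSH6 was 4.85, 4.84 and 4.84 in isgCtrl and 4.62, 4.77 and 4.65 in PRMT1-KO, without overlap. BRCA2 was 1.71, 1.63 and 2.02 in isgCtrl and 1.11, 1.77 and 1.59 in PRMT1-KO, and these values overlapped. LIG4 was 3.02, 2.88 and 2.91 in isgCtrl and 2.89, 2.92 and 2.93 in PRMT1-KO, also with overlap.

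The other genes described above were likewise not called in PRMT1-KO. RAD54B was 3.29, 3.61 and 3.73 in isgCtrl and 3.14, 3.14 and 3.40 in PRMT1-KO, a log2 fold change of -0.32. TOPBP1 was 5.55, 5.38 and 5.63 in isgCtrl and 5.35, 5.32 and 5.44 in PRMT1-KO (-0.15), and MRE11 was 4.40, 4.64 and 4.49 in isgCtrl and 4.33, 4.26 and 4.68 in PRMT1-KO (-0.09). BLM was 3.56, 3.49 and 3.57 in isgCtrl and 3.42, 3.45 and 3.50 in PRMT1-KO (-0.09). In all of these genes the groups overlapped.

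POLQ was 2.66, 2.79 and 2.73 in isgCtrl and 2.64, 2.62 and 2.89 in PRMT1-KO (-0.01), and XRCC4 was 3.40, 3.36 and 3.46 in isgCtrl and 3.46, 3.37 and 3.41 in PRMT1-KO (0.003), both with overlap. PARP1 was 8.55, 8.48 and 8.45 in isgCtrl and 8.25, 8.22 and 8.28 in PRMT1-KO, without overlap. Its log2 fold change was -0.24 (SE 0.05) in PRMT1-KO and -0.31 with MS023, and the difference between these effects, -0.07, was not called.

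The intervals say how large a change in PRMT1-KO the samples leave possible. All 47 of the 95% intervals lay above -1, the lowest bound being -0.87 for FANCB, and all lay below 0.48. For 37 genes the interval also lay above -0.48, and for 10 it reached that value. The means of the HR and Fanconi genes were 4.03, 4.04 and 4.08 in isgCtrl and 3.85, 3.92 and 3.93 in PRMT1-KO, and those of the end joining and mismatch repair genes were 4.99, 4.94 and 5.02 in isgCtrl and 4.91, 4.87 and 4.93 in PRMT1-KO. Every PRMT1-KO sample was thus below every isgCtrl sample in both means, and for the end joining and mismatch repair genes the nearest samples were 4.93 and 4.94. The median log2 fold change of these 8 genes was -0.05, near the -0.04 of all genes tested, and that of the 23 HR and Fanconi genes was -0.15. After median-ratio scaling the medians were -0.01, -0.002 and -0.11 in the same order.

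The effect of MS023 was set against that of PRMT1-KO in a fit of all 12 samples, in which the test is of the difference between both effects. The effect of MS023 was lower in 25 of the 47 genes and higher in none, where 14.7% of 13256 genes tested were called lower and 9.69% higher. All 25 were among the 31 that fell with MS023, and ATR, PMS2, BARD1 and FANCD2 lost the call in some of the alternative fits. LIG4 was called higher under both scalings. Of the 20 markers of S phase and proliferation, 17 were called lower and 1 higher in the same test. FANCI had the largest difference, -1.51 (SE 0.10), from -1.78 with MS023 and -0.27 in PRMT1-KO (limma, BH-adjusted p = 4.56e-06). BRCA1 had a log2 fold change of -0.95 with MS023 and of 0.10 in PRMT1-KO, a difference of -1.05. For PALB2, RAD54L, FANCB, FANCM, BRIP1 and ATM, which fell with MS023, the difference was not called. BRIP1, for example, had -0.99 with MS023 and -0.42 in PRMT1-KO, with a difference of -0.57 and a standard error of 0.22 (limma, BH-adjusted p = 0.0689).

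**Figure D5:**
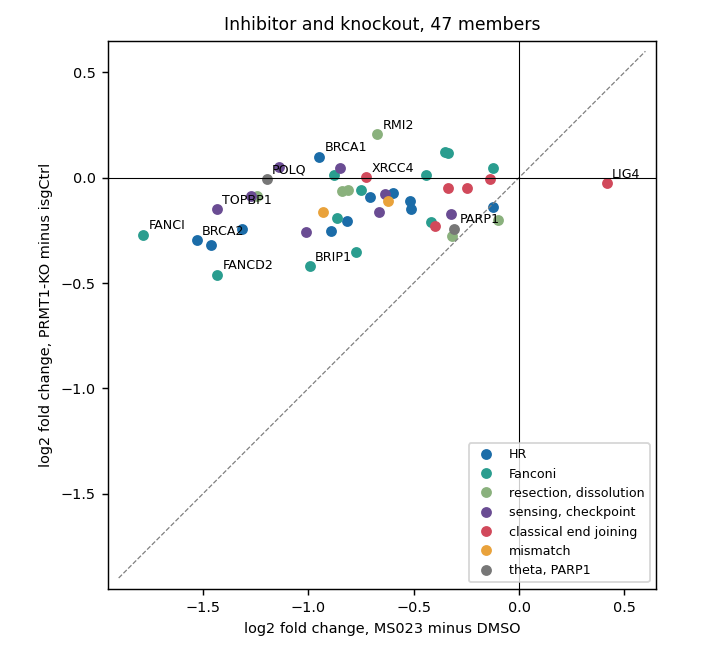
Log2 fold change with MS023 (x axis) and in PRMT1-KO (y axis) for the 47 genes, coloured by role. On the dashed line both would be equal. The points spread from -1.78 to 0.42 along the x axis and from -0.46 to 0.21 along the y axis.

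The control groups were also compared, since isgCtrl and DMSO cells differ in Cas9, guide, Dox and DMSO together and each is the control of one of the comparisons above. FANCL was called lower in isgCtrl (-0.49), and TOP3A (0.55) and PRKDC (0.64) higher, where 6.70% of 12661 genes tested were called lower and 7.23% higher. PRKDC was 5.33, 5.11 and 5.23 in DMSO and 5.82, 5.80 and 5.96 in isgCtrl. The count was 1 without the first DMSO replicate. FANCI, whose values in DMSO and isgCtrl were 6.79 to 6.83 and 6.65 to 6.75, was not called (-0.11). BRCA2 had the lowest log2 fold change of the 47 genes, -0.68, at 52.5% of its TPM in DMSO, and was not called (limma, BH-adjusted p = 0.0806). It was called lower with all 12 samples in 1 fit and without the third DMSO replicate. UBE2T (-0.43; limma, BH-adjusted p = 0.00231) lay under the threshold of size. The effects of MS023 and PRMT1-KO on BRCA2 thus start from different control levels.

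Some of the 47 genes share a start region with another gene transcribed the other way. With at most 1000 bases between the canonical starts of GENCODE v44 on GRCh38, 16 of the 47 had such a protein-coding neighbour, in 17 pairs. In 9 pairs the repair gene fell with MS023 and the neighbour was tested. None of the 9 neighbours was called, where 19.3% of all genes tested were called lower and 11.6% higher. With so few pairs, the difference from these shares was not tested. HNRNPK and TMEM167A had an adjusted p under 0.05 in limma with log2 fold changes of -0.34 and -0.43, under the threshold of size. RAD51AP1 had -1.32 and its neighbour C12orf4, 421 bases away, -0.35. For MRE11 and ANKRD49, 140 bases apart, the values were -1.27 and -0.38, and for FANCB and MOSPD2, 352 bases apart, -0.77 and 0.11. CHEK2 had -0.85 and HSCB -0.12, and PMS2 had -0.62 and AIMP2 0.10. The remaining neighbours were DCTN5 of PALB2 (-0.06) and NPAT of ATM (-0.28). Of the pairs whose repair gene was not called, XRCC6 (-0.25) had the neighbour DESI1, which rose by 0.64, and PRKDC (-0.40) had MCM4, 805 bases away, which fell by 0.81.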

How the data were processed

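RNA-seq of 12 samples of the cell line JJN3 was analysed. By the study's methods and the submitters' processing notes, reads went through Trimmomatic, STAR (on hg38, GENCODE V35) and Salmon, and the authors deposited log2(TPM+1) per gene symbol. These deposited log2 values were used as they stand. Depth per sample is not known from TPM, and near-identical genes can share reads.

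Groups came from the labels. As in the study's methods, differences were tested with limma (version 3.58.1, R 4.3.3) by lmFit and eBayes, with no trend, on the 6 samples compared, or on all 12 for the difference between effects. Genes with a mean above 1 in either group (any group for all 12) were tested and p adjusted by Benjamini-Hochberg over all of them. Calls needed an adjusted p under 0.05 together with a log2 fold change past 0.48 in either direction. With MS023 this called far more genes (2486 lower and 1500 higher) than the study reported, for a reason that was not examined. In PRMT1-KO the count (96) was close to the study's. ± is the SD of 3 replicates. The 47 genes and all lists were chosen with earlier results of these data known. The search for neighbouring genes was added after the results were seen. Values in every sample are printed for the 2 genes with the largest and the 1 with the smallest absolute change with MS023 in each list. The named genes of other repair lists are the 3 with the largest change, RECQL5 apart, which was named after its value was seen. Gene positions are from GENCODE v44 on GRCh38, and promoters from RefSeq. Scripts were tested on simulated data. Alternatives were other filters, a replicate block, 0.1 as the pseudocount, quantile normalization, median-ratio scaling, a trended eBayes, all 12 samples in 1 fit, each replicate left out, and fold change thresholds of 0 and 1.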

Additional observations from a re-analysis of the deposited data

Results flagged for a closer look

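For 25 of the 47 repair genes the effect of MS023 differed from that of PRMT1-KO on the log2 scale (limma with Benjamini-Hochberg adjustment over 13256 genes, on all 12 samples). The value given for each is the log2 fold change with MS023 less the log2 fold change in PRMT1-KO, and all are negative. No cause was tested.

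Among genes that load the recombinase the difference was -1.23 for BRCA2, -1.14 for RAD54B, -1.07 for RAD51AP1, -1.05 for BRCA1, -0.64 for RAD51C, -0.62 for XRCC2 and -0.61 for BARD1. In the Fanconi pathway it was -1.51 for FANCI, -0.97 for FANCD2, -0.89 for UBE2T and -0.69 for FANCG. In resection and dissolution it was -1.16 for BLM, -0.88 for RMI2, -0.78 for RMI1 and -0.75 for EXO1. In break sensing and the checkpoints it was -1.29 for TOPBP1, -1.19 for CHEK1, -1.18 for MRE11, -0.89 for CHEK2, -0.76 for RAD50 and -0.50 for ATR. It was -0.77 for MSH6 and -0.51 for PMS2 in mismatch repair, -0.73 for XRCC4 in classical end joining and -1.19 for POLQ.

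Not all of these calls held in the alternative fits with the same thresholds. ATR was not called under median-ratio scaling, quantile normalization or without DMSO replicate 2, MS023 replicate 2, MS023 replicate 3, isgCtrl replicate 1 or PRMT1-KO replicate 3. PMS2 was not called under either scaling or without MS023 replicate 2 or isgCtrl replicate 2. BARD1 was not called with all genes above 0 tested, with the replicate block, or without DMSO replicate 3, MS023 replicate 2, isgCtrl replicate 1, PRMT1-KO replicate 1 or PRMT1-KO replicate 2. FANCD2 was not called with the replicate block, and BRCA2 was not tested where every sample had to exceed 1 TPM. In some fits RAD54L, ATM, BRIP1, FANCM, PALB2, FANCA, FANCE and FANCL were called lower as well, and LIG4 was called higher under both scalings, with 0.1 as the pseudocount and without MS023 replicate 1.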

How the results depend on the processing

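The 31 repair genes called lower with MS023 became 28 to 32 over the 14 alternative fits, and 28 of the 31 were called in each of those fits that tested them. BRCA2, BRIP1, FANCB and FANCM were not tested where every sample had to exceed 1. That fit kept 27 of the 31 calls and added RAD51D. PALB2 lost its call under median-ratio scaling (-0.43), quantile normalization (-0.37) and without MS023 replicate 2 (-0.48), RAD54L under quantile normalization (-0.45) and without DMSO replicate 1 (adjusted p = 0.051, limma with Benjamini-Hochberg adjustment), and PMS2 under quantile normalization (-0.48). Genes called higher were 1 (LIG4) under median-ratio scaling, quantile normalization and with no fold change threshold. With no fold change threshold 5 end joining and mismatch repair genes were called lower, and 13 genes were called between the control groups. At an absolute log2 fold change above 1 the counts were 11 genes lower, 5 HR and Fanconi genes, 0 end joining and mismatch repair genes, 0 between the control groups and 10 for the difference between effects. With resection and break sensing genes added, 27 HR and Fanconi genes fell. Leaving out 1 replicate, the count between the control groups was 1 to 4, and the log2 fold change of XRCC3 was -0.21 to 0.011. Under quantile normalization it was 0.016 for XRCC3 and 0.015 for FANCF. Other than where a threshold or scaling sets the count, the cause was not tested. Median-ratio scaling and quantile normalization moved the median of all genes with MS023 from -0.11 to -0.021 and -0.015, and the genes called lower and higher from 2486 and 1500 to 1959 and 1906, and to 1927 and 1922. For the difference between effects they went from 1947 and 1284 to 1590 and 1629, and to 1667 and 1584, and in PRMT1-KO from 45 and 51 to 30 and 65, and to 28 and 65. In PRMT1-KO 0 repair genes were called in every alternative. Without 1 replicate, 1 to 10 of all genes tested were called lower and 1 to 11 higher there, so those fits say little of the repair genes.

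With the replicate block 32 repair genes were lower with MS023, 0 were called in PRMT1-KO, where none of the 12285 genes tested was called, PRMT1 included, 24 for the difference between effects and 2 between the control groups. Deviations from the group means of same-numbered samples correlated with a mean r of 0.065 with MS023 and of -0.047 in PRMT1-KO. For the other pairs of samples it was -0.033 and 0.024. The deviations of a group sum to 0, so the values of the other pairs largely follow from those of same-numbered pairs. Whether same-numbered samples share more than a number was therefore not settled. With 3 replicates a group, the samples do not exclude changes in PRMT1-KO of any size within the 95% intervals.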

Other observations

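PRKDC shares its start region with MCM4, a subunit of the replicative helicase, 805 bases away, and SPIDR, a scaffold of recombination, had similar values in the comparisons that use isgCtrl, which was noticed after the values were seen. All were higher in isgCtrl than in DMSO, by a log2 fold change of 0.64 for PRKDC, 0.49 for MCM4 and 0.63 for SPIDR. In PRMT1-KO against isgCtrl the log2 fold changes were -0.23, -0.24 and -0.34, and none of these was called. With MS023 they were -0.40, -0.81 and -0.03, of which that of MCM4 alone was called. The comparison of isgCtrl with DMSO shares its samples with the other comparisons.

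Under the scalings, the sign in PRMT1-KO moved for the other HR and Fanconi genes. All 34 tested were negative in the deposited values, 30 after median-ratio scaling and 29 after quantile normalization, while 60.5% of all genes tested were negative in the deposited values, and 50.7% and 50.5% after these scalings.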
